A study of Mus musculus with 59 samples.

Results

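The genes described here are 9 markers of cholinergic neurons and of the motor neurons of the cranial nerves (Chat, Slc18a3, Slc5a7, Ache, Isl1, Tbx20, Ret, Chodl and Mmp9), chosen by symbol from the 41227 genes of a table of expression in mouse pons. RNA sequencing was used to compare mouse models of spinocerebellar ataxia type 3, a disease in which a longer CAG repeat in ATXN3 lengthens the polyglutamine tract of ataxin-3, in mice of strain C57BL/6. The table holds 37 libraries in 2 sets, which were tested apart from each other. The first set holds 3 wild-type libraries (WT), 3 of an ATXN3 knockout (Atxn3KO) and 3 of a knock-in whose Atxn3 holds a duplicated Q82 repeat, as homozygote (dupKIHom). The second set holds 6 wild-type libraries and 6 heterozygous for the duplicated repeat (dupKIHet), 4 libraries each of the knock-in that carries a single Q82 repeat as heterozygote (KIHet) and homozygote (KIHom), and 4 each from hemizygous mice transgenic for human ATXN3 with a Q84 or a Q15 repeat (YACQ84 and YACQ15). Only the transgenic mice carry human ATXN3, and every group has the pons as its tissue. Age, sex and the promoter of the transgenes are not given in the sources used here. Expression is in FPKM (fragments scaled by transcript length and by mapped fragments), a unit that is already per length, so that levels may be set side by side between genes.

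Cholinergic neurons take up choline with the transporter Slc5a7, join it to an acetyl group with choline acetyltransferase (Chat) and load the acetylcholine into vesicles with Slc18a3. Acetylcholinesterase (Ache) breaks the transmitter down after release, and it is also made by many neurons that do not release acetylcholine. In the pons the cholinergic cells include the motor neurons of the trigeminal, abducens and facial nerves and the tegmental neurons that project to the thalamus and midbrain. Isl1 and Tbx20 are transcription factors of developing and mature motor neurons, Ret is the receptor tyrosine kinase for ligands of the GDNF family, and Chodl and Mmp9 are markers of fast motor neurons in the mouse spinal cord.

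Chat (ENSMUSG00000021919) and Slc18a3 (ENSMUSG00000100241) both lie on chromosome 14, where Slc18a3 sits inside the Chat gene without sharing an exon with it in the GENCODE M21 annotation. Slc5a7 (ENSMUSG00000023945) lies on chromosome 17, Ache (ENSMUSG00000023328) on 5, Isl1 (ENSMUSG00000042258) on 13, Tbx20 (ENSMUSG00000031965) on 9, Ret (ENSMUSG00000030110) on 6, Chodl (ENSMUSG00000022860) on 16 and Mmp9 (ENSMUSG00000017737) on 2. An exon of Ache overlaps one of Gm42456 on the opposite strand, so its FPKM is uncertain where reads were not assigned by strand. Promoter windows of 300 bases (250 before the start of the gene and 50 after) were found for 7 of the 9 genes in RefSeq, build GRCm38.p6. The 4 shown are those of the neighbours Chat and Slc18a3 and of Slc5a7 and Chodl, the members with the lowest adjusted p-values in dupKIHom. All are written 5′ to 3′ on the strand of the gene, and capitals mark a match to a TATA box (TATAAA) or a GC box (GGGCGG) on either strand. The Chat window is chr14:32465860-32466159 on the minus strand, that of Slc18a3 chr14:32464801-32465100 on the minus strand, that of Slc5a7 chr17:54298985-54299284 on the minus strand and that of Chodl chr16:78930698-78930997 on the plus strand.
Chat: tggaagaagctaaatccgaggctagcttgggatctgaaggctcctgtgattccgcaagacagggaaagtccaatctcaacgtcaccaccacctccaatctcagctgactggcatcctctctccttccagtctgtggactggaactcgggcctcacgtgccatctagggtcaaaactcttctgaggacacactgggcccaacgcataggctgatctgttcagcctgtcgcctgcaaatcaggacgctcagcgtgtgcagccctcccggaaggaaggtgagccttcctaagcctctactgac
Slc18a3: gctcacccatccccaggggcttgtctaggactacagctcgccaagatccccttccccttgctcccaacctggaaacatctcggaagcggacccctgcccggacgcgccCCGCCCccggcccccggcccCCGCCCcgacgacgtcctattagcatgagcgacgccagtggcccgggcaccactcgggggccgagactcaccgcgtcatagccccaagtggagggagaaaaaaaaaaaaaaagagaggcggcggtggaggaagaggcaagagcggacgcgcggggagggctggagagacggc
Slc5a7: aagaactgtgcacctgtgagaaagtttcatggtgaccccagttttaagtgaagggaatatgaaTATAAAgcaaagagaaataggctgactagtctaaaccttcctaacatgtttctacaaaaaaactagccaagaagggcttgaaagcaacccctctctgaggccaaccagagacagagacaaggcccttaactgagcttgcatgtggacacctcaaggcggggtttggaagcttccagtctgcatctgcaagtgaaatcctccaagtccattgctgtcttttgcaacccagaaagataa
Chodl: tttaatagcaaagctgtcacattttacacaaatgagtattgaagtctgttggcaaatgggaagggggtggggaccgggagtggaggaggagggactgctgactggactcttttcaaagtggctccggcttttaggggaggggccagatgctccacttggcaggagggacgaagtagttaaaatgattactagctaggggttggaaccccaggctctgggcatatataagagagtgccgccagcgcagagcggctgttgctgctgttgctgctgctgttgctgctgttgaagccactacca
The Slc18a3 window held 2 GC boxes that do not overlap, and the Slc5a7 window held 1 TATAAA, at -187 from the start of the gene. The windows of Chat and Chodl held no exact match to either. Near matches were not counted, such as the tatataag of the Chodl window, so the absence of a TATA box is not shown. Of all 27025 promoter windows of this length, 35.91% held a GC box and 14.16% a TATA box. A homeodomain core (TAATTA, present in 5.31% of all windows) and the right part of the RE1 element (GGACAGC, 6.59%), searched on both strands, matched none of the 7 windows. The neighbours Chat and Slc18a3 thus differed in exact matches to these motifs, and the called genes Slc5a7 and Chodl shared no exact match.

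Summed FPKM ran from 488351 to 695249 over the 9 libraries of the first set. Over the 28 of the second it ran from 430083 to 560516, and the sequencing depth is unknown. Ddx3y and Xist showed the first set to be male and the second female, so sex and set cannot be told apart. Atxn3 was at 7.04 ± 0.704 FPKM (SD, n = 3) in wild-type of the first set and at 0.239 ± 0.0832 FPKM in the knockout. It was at 12.5 ± 1.79 FPKM in dupKIHom. Ttr, a marker of choroid plexus, was at 1442, 17.6 and 2909 FPKM in the knockout. It reached at most 218 FPKM in wild-type of that set and 457 FPKM in dupKIHom. A limit of 1000 FPKM of Ttr, used below, thus leaves out the knockout libraries at 1442 and 2909 FPKM. Among the females Ttr ran from 27.7 to 643 FPKM in wild-type and from 14.2 to 2470 FPKM in dupKIHet. In the second set, library 1 of each genotype stood apart. After subtraction of the genotype means, the 15 pairs of libraries numbered 1 correlated across genes at 0.16 to 0.38 (mean 0.29). The 309 other pairs of different genotypes ran from -0.40 to 0.31 (mean -0.01), so the ranges overlapped. Nefm, which encodes the medium neurofilament subunit, ran from 316 to 357 FPKM in the 6 libraries numbered 1 and from 521 to 646 FPKM in the other 22. Among the members, Ache was lowest in library 1 in 6 of 6 genotypes and Slc5a7 was highest there in 4 of 6. Of the 8 members tested, 0 were called in each of the 8 comparisons of the second set, both with and without these libraries. Those fits had no term for library 1. A fit with a term for each library number called Slc5a7 in YACQ84 against YACQ15 (limma adjusted p = 0.0409). In dupKIHet against KIHet that fit called Slc5a7 (0.0397) and Ret (0.0449). Without the libraries numbered 1, from 1 (KIHom against KIHet) to 1771 (dupKIHet against KIHet) of all 14664 genes were called.

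In wild-type pons of the first set Ache was the most abundant member (92.0, 89.6 and 88.0 FPKM). Slc5a7 followed (19.3, 19.8 and 17.2 FPKM), then Slc18a3 (18.2, 17.7 and 12.3 FPKM) and Ret (14.4, 12.8 and 14.5 FPKM), and these neighbours in the order overlapped. Chodl (8.20, 9.61 and 9.93 FPKM) and Chat (8.72, 7.41 and 6.06 FPKM) overlapped as well. Low levels were seen for Mmp9 (1.33, 2.08 and 2.09 FPKM), Isl1 (1.24, 1.54 and 1.38 FPKM) and Tbx20 (0.624, 0.608 and 0.608 FPKM), so the motor neuron transcription factors were the members with the lowest levels together with Mmp9. In the 6 wild-type libraries of the second set the order was Ache (73.3 ± 5.15 FPKM), Slc5a7 (16.7 ± 2.31), Ret (12.1 ± 0.956), Slc18a3 (8.59 ± 0.585), Chat (7.82 ± 0.928) and Chodl (7.12 ± 1.07). Mmp9 (1.53 ± 0.241 FPKM), Isl1 (1.47 ± 0.366) and Tbx20 (0.535 ± 0.141) again came last. Slc18a3 was thus at 16.1 ± 3.31 FPKM in wild-type of the first set and at 8.59 ± 0.585 in the second while Chat was at 7.40 ± 1.33 and 7.82 ± 0.928. That difference between sets was not tested, since set and sex cannot be told apart.

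The label was checked against markers that the choice of members did not use. Prph, which encodes the neuronal filament protein peripherin, was at 23.0 ± 3.10 FPKM in the 3 wild-type libraries of the first set and at 21.2 ± 3.81 FPKM in the 6 of the second. The 8 genes of a list for forebrain cholinergic and other forebrain neurons summed to 5.41 to 7.95 FPKM per library, and the filter kept 3 of them in the first set and 2 of them in the second. Neurod2 had the highest level (3.68 ± 0.706 FPKM in wild-type of the first set), while the forebrain factors Lhx8 and Nkx2-1 reached at most 0.142 and 0.0715 FPKM in any library. Mnx1, a factor of spinal motor neurons, was also low, with at most 0.256 FPKM. Of 18 transcription factors of motor neurons, 9 passed the filter in each set, and the others did not reach 1 FPKM in 3 libraries. Prph, Lhx8, Nkx2-1 and Mnx1 were picked after their values were seen, which limits this check. Since the pons was sequenced as whole tissue, fewer cells of a type and less RNA per cell cannot be told apart in any value below.

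**Figure D1:**
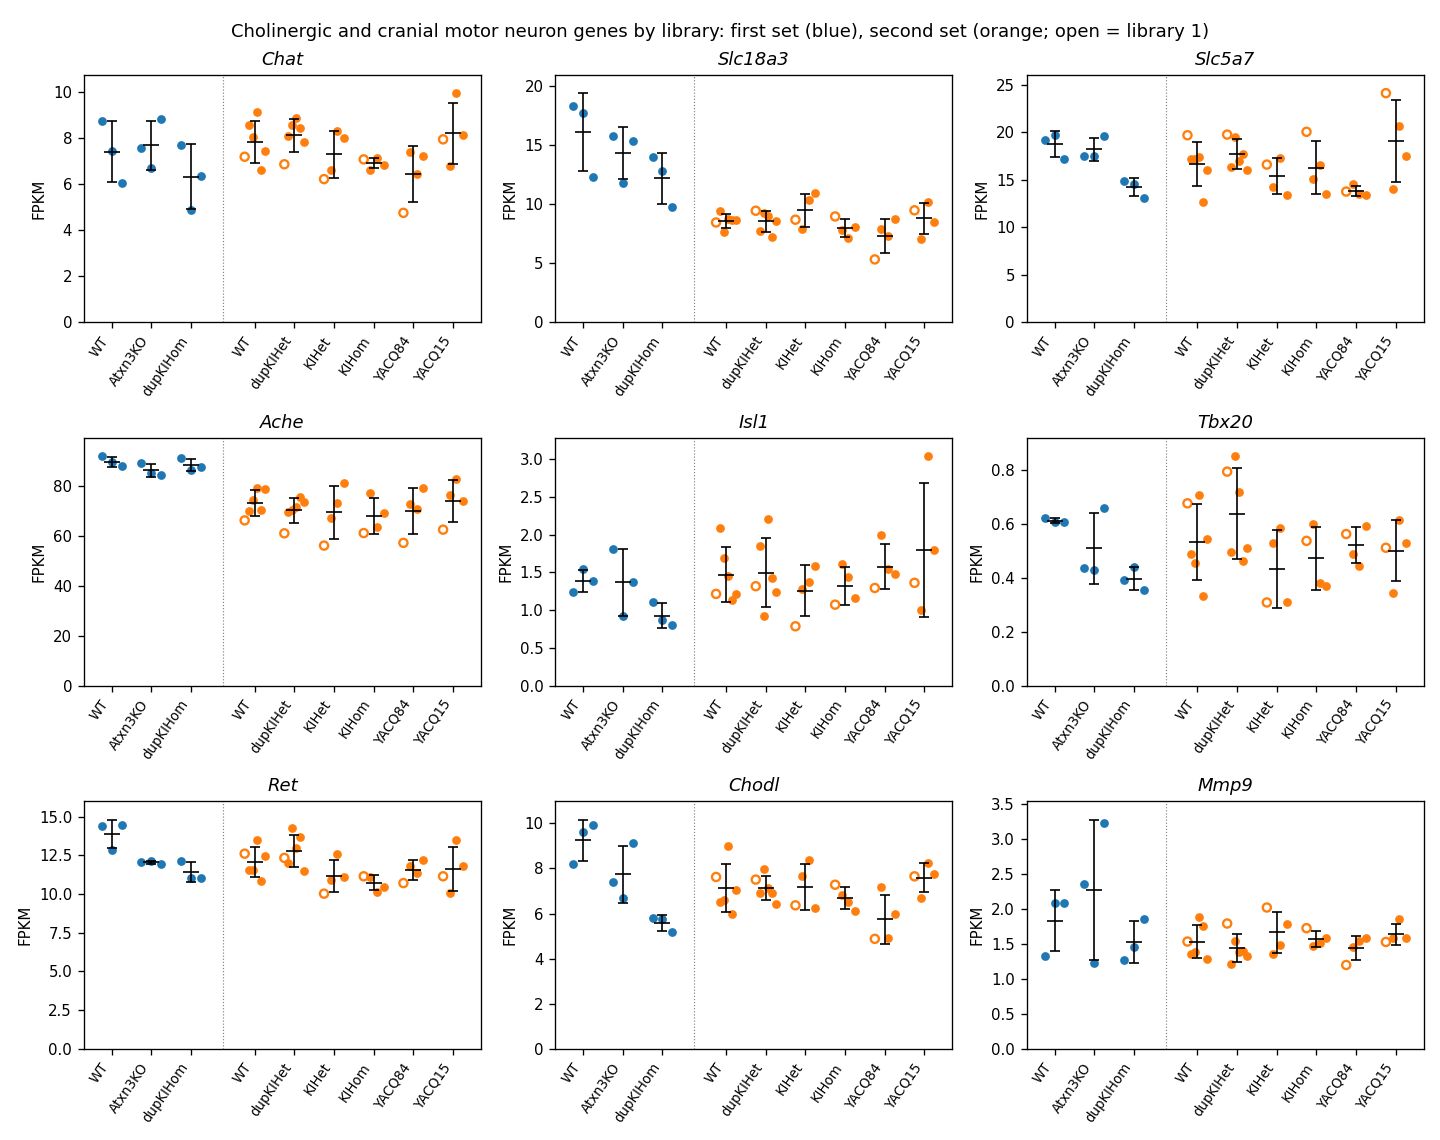
FPKM (vertical axes, from 0) of the 9 genes in each of the 37 libraries by genotype; blue points are the first set, orange points the second, open circles library 1 of each genotype of the second set, and bars mean ± SD. The 3 dupKIHom libraries lie below the 3 wild-type libraries for Slc5a7, Isl1, Tbx20, Ret and Chodl, and the open circles are the lowest of their genotype for Ache.

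The homozygous duplicated knock-in was compared with wild-type in the first set. Chodl and Slc5a7 fell, by 0.64 and 0.38 on the log2(FPKM + 1) scale, and the other members tested did not pass. Chodl was at 8.20, 9.61 and 9.93 FPKM in wild-type and at 5.82, 5.75 and 5.17 FPKM in dupKIHom. Every dupKIHom library lay below every wild-type library. The mean was 9.25 ± 0.925 FPKM in wild-type and 5.58 ± 0.354 FPKM in dupKIHom (n = 3 each), a log2 change of -0.64 with an SE of 0.11 (limma adjusted p = 0.0164). Slc5a7, which supplies the choline for synthesis, was at 19.3, 19.8 and 17.2 FPKM in wild-type and at 14.9, 14.6 and 13.1 FPKM in dupKIHom. Its groups did not overlap either. Its mean went from 18.8 ± 1.36 to 14.2 ± 0.947 FPKM, a log2 change of -0.38 with an SE of 0.08 (limma adjusted p = 0.0485).

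A gene was tested where it reached 1 FPKM in at least 3 libraries of a set, which 8 of the 9 members did; Tbx20 did not, and its values come from a fit without that filter. Of the 8 tested, 2 were called in dupKIHom, both lower, while 1.64% of the 14059 genes tested were called (162 of 230 lower). The median change of the 8 was -0.29 (log2), against 0.02 over all genes, and 0 of the 8 were above 0. With 1 of the 6 libraries compared left out, the Chodl call held in 1 of 6 fits and the Slc5a7 call in 0 of 6. The log2 changes in those fits lay between -0.71 and -0.59 for Chodl and between -0.43 and -0.32 for Slc5a7. Of all genes, 112 to 160 were called in those fits. The Chodl call was lost (limma adjusted p) without wild-type library 2 (0.0760) or 3 (0.0763), or without dupKIHom library 1 (0.0529), 2 (0.0609) or 3 (0.0698), and held without wild-type library 1 (0.0260). The Slc5a7 call was lost without wild-type library 1 (0.163), 2 (0.186) or 3 (0.0553), without dupKIHom library 1 (0.0995), 2 (0.127) or 3 (0.194), and without knockout library 1 (0.0670). Without a filter on low values the adjusted p-values were 0.0629 for Chodl and 0.0944 for Slc5a7, and with FPKM rescaled to equal sums 0.197 and 1.00.

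Of the other genes of the transmitter cycle, Slc18a3, the vesicular transporter, was at 18.2, 17.7 and 12.3 FPKM in wild-type and at 14.0, 12.8 and 9.76 FPKM in dupKIHom. The groups overlapped and the change of -0.37 (log2, SE 0.17) did not pass (limma adjusted p = 0.407). Chat was at 8.72, 7.41 and 6.06 FPKM in wild-type and at 7.71, 4.88 and 6.34 FPKM in dupKIHom, with a change of -0.21 (SE 0.16, limma adjusted p = 0.693). Its 95% interval of -0.56 to 0.14 holds changes as large as that of Slc5a7. Ache was at 89.9 ± 2.00 FPKM in wild-type and 88.5 ± 2.53 FPKM in dupKIHom, and its interval of -0.14 to 0.09 (log2) was the narrowest of the members in this comparison.

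Of the motor neuron genes, Ret was at 14.4, 12.8 and 14.5 FPKM in wild-type and at 12.2, 11.0 and 11.1 FPKM in dupKIHom. The groups did not overlap, but the change of -0.26 (log2, SE 0.07) did not pass (limma adjusted p = 0.141). Isl1 was at 1.24, 1.54 and 1.38 FPKM in wild-type and at 1.11, 0.874 and 0.800 FPKM in dupKIHom (change of -0.31, limma adjusted p = 0.470). Tbx20 was at 0.613 ± 0.00942 FPKM in wild-type and 0.397 ± 0.0430 FPKM in dupKIHom (change of -0.21, limma adjusted p = 0.400 without the filter). For both, every dupKIHom library lay below every wild-type library. Mmp9 was at 1.83 ± 0.439 and 1.53 ± 0.305 FPKM (limma adjusted p = 0.853). In all, 5 of the 9 members, and 4 of the 8 tested, had every dupKIHom library below every wild-type library, against 8.2% of all genes tested.

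**Figure D2:**
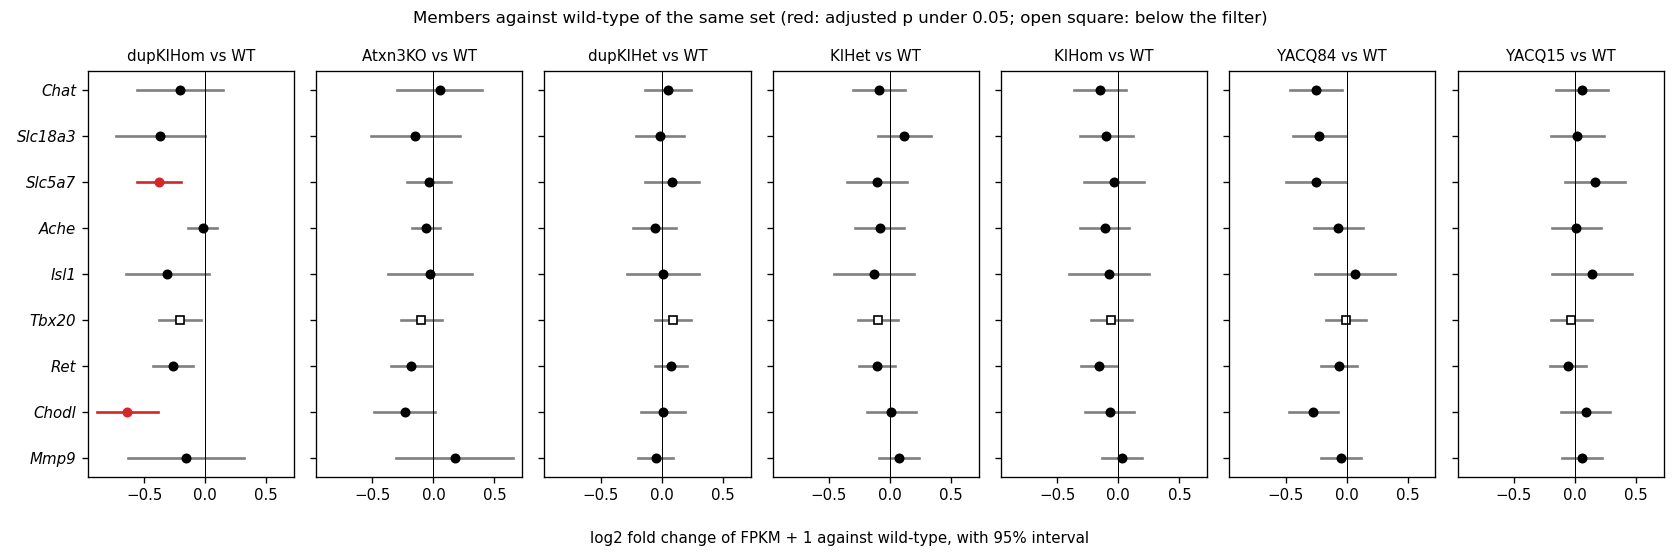
Log2 change of FPKM + 1 against wild-type of the same set (horizontal axis, points) with 95% intervals (lines) for the 9 genes in 7 genotypes; red marks an adjusted p under 0.05 and open squares Tbx20, which was below the filter. Chodl (-0.64) and Slc5a7 (-0.38) in dupKIHom are the red points, and all points of dupKIHet lie between -0.06 and 0.09.

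Other genes of motor neurons and of acetylcholine signalling were taken from lists. Of 18 genes of motor neuron effectors (structural proteins, peptides and receptors), 18 were tested in the first set and 3 were called in dupKIHom, all lower. They are the neurofilament subunits, which form the axonal cytoskeleton of motor neurons and of many other large neurons. Nefl went from 593 ± 15.3 to 454 ± 25.5 FPKM (log2 change -0.39, limma adjusted p = 0.0121). Nefm went from 369 ± 2.67 to 274 ± 21.4 FPKM (-0.43, adjusted p = 0.0156) and Nefh from 168 ± 4.94 to 130 ± 7.25 FPKM (-0.37, adjusted p = 0.0393). With 1 of the 6 libraries compared left out, the calls passed in 2, 1 and 0 of 6 fits for Nefl, Nefm and Nefh, with adjusted p-values up to 0.0660, 0.0695 and 0.160. With FPKM rescaled to equal sums none passed, with adjusted p-values of 0.971, 0.783 and 1.00. The median change of the 18 was -0.22 (log2), against 0.02 over all genes, and 6 were above 0. In the knockout Nefl was at 510, 481 and 547 FPKM. Nefm was at 310, 288 and 347 FPKM there and Nefh at 143, 129 and 159 FPKM. For these 3 genes every knockout library also lay below every wild-type library, against 5.17% of all genes. None of the 18 was called in the knockout against wild-type or in dupKIHom against the knockout. Vipr2, a receptor for the peptide VIP, was at 2.56 ± 0.243 FPKM in wild-type and 1.26 ± 0.0241 FPKM in dupKIHom (adjusted p = 0.0540), and Calcb, which encodes a calcitonin gene-related peptide, was at 7.08 ± 1.17 and 4.19 ± 0.738 FPKM (adjusted p = 0.0672). These last genes were picked after their values were seen.

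No acetylcholine receptor subunit was called in any of the 11 comparisons between genotypes. Of 21 receptor genes, 6 passed the filter in the first set and 9 did in the second, and the receptors with the highest levels in wild-type of the first set were Chrm2 (12.8 ± 0.770 FPKM, n = 3), the muscarinic receptor with a known presynaptic role, and Chrnb2 (12.2 ± 1.02 FPKM), a nicotinic subunit. In wild-type of the second set they were at 11.3 ± 1.45 and 12.9 ± 0.621 FPKM, with the nicotinic subunit Chrna4 (11.6 ± 0.482 FPKM) between them. The log2 changes of Chrm2 and Chrnb2 in dupKIHom were -0.17 (limma adjusted p = 0.597) and 0.11 (0.719), and the median over the 6 was -0.10. Of 17 genes of acetylcholine and choline handling in the table, 15 were tested and 0 passed in dupKIHom, with a median change of 0.03. Of 18 transcription factors of motor neurons, 9 were tested and 0 passed, with a median of -0.04. Of 15 ligands and co-receptors for Ret and for related trophic factors, 10 were tested. Only Ntrk2, the receptor for BDNF, which astrocytes also express, fell among them, from 86.4 ± 2.40 to 64.1 ± 3.94 FPKM (-0.43, adjusted p = 0.0121), a call that held in 2 of 6 fits with 1 library left out (adjusted p up to 0.0616) and was lost after rescaling (0.862). Gfra1, the co-receptor for GDNF, was at 17.1 FPKM in wild-type and 18.5 FPKM in dupKIHom (adjusted p = 0.668). Of 14 genes of the axon injury response of motor neurons, 11 were tested and 0 passed, with a median of 0.12.

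**Figure D3:**
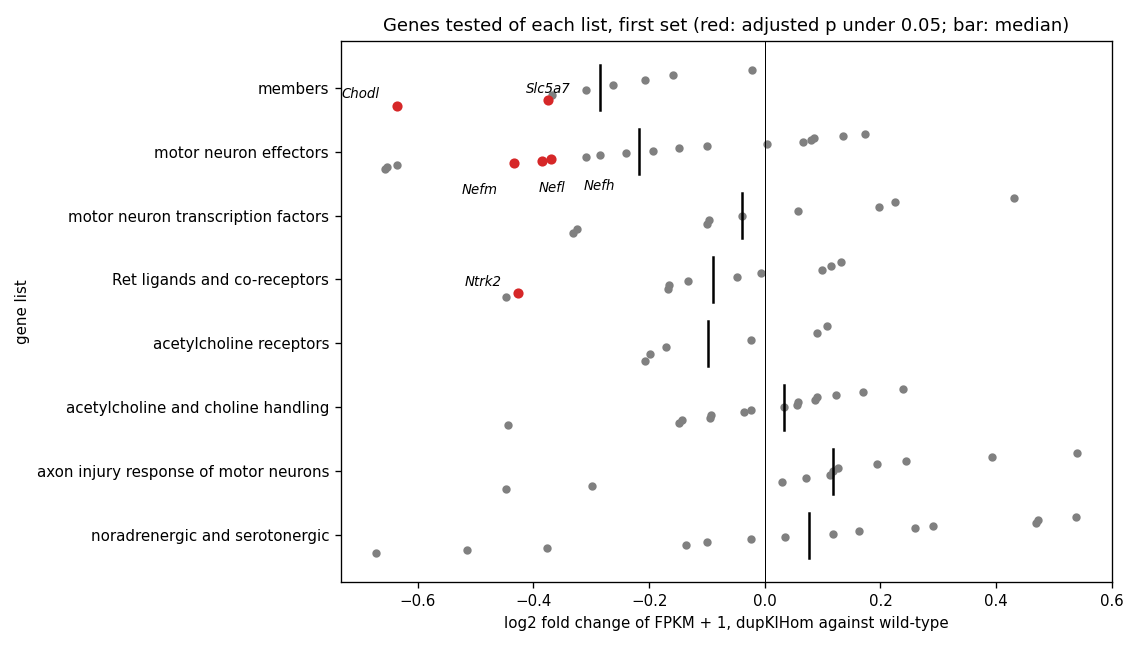
Log2 change of FPKM + 1 of dupKIHom against wild-type (horizontal axis) for the tested genes of 8 lists; each point is a gene, red marks an adjusted p under 0.05 and the bar is the median of the list. The median is -0.29 for the 9 markers' 8 tested genes, -0.22 for motor neuron effectors and 0.03 for acetylcholine and choline handling.

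Markers of glia and of endothelium moved in the same libraries. Of 11 markers of mature oligodendrocytes, 8 were lower in dupKIHom than in wild-type, with a summed level of 3484 to 3852 FPKM against 5724 to 6737 FPKM. Of 9 astrocyte markers, 6 were lower, with 570 to 674 FPKM against 897 to 983 FPKM. Of 8 endothelial markers 1 was lower, Cldn5, a tight junction protein (34.0 ± 2.88 to 21.3 ± 1.76 FPKM, -0.65, limma adjusted p = 0.00427), and the 8 summed to 75.5 to 80.2 FPKM against 97.3 to 108 FPKM. None of the glial markers was at 0 in any library of the first set, and the part of these cell types in the changes of Chodl and Slc5a7 was not tested. In dupKIHet the summed levels were 3258 to 3604 FPKM against 4349 to 4918 FPKM in wild-type for oligodendrocytes and 651 to 735 FPKM against 997 to 1054 FPKM for astrocytes. The endothelial markers went the other way in dupKIHet, where 4 of 8 were called higher. They summed to 84.3 to 103 FPKM against 58.1 to 92.8 FPKM in wild-type, ranges that overlapped.

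The knockout was set against wild-type to show what the loss of ataxin-3 alone does to these genes. None of the 8 members tested was called (0.0142% of all genes tested were, 908 at an unadjusted p under 0.05), and 1 had an unadjusted p under 0.05. That was Ret, at 12.1, 12.1 and 12.0 FPKM in the knockout and 14.4, 12.8 and 14.5 FPKM in wild-type, with a change of -0.19 (log2, SE 0.07, limma adjusted p = 0.747). The groups did not overlap, which held for 1 of the 8 members and for 5.17% of all genes. Chodl was at 7.40, 6.69 and 9.13 FPKM in the knockout and overlapped wild-type (-0.24, adjusted p = 0.790). Chat (7.54, 6.68 and 8.80 FPKM) and Slc5a7 (17.5, 17.5 and 19.6 FPKM) had changes of 0.05 and -0.04. Mmp9, which neutrophils also carry, was at 2.36, 1.23 and 3.24 FPKM. The list of neutrophil and blood genes summed to 553 to 3483 FPKM in the knockout against 352 to 732 FPKM in wild-type. Haemoglobin genes made up most of that sum, the neutrophil gene S100a8 ran from 3.19 to 14.0 FPKM and S100a9 from 1.62 to 9.69 FPKM over the 9 libraries, 6 further neutrophil genes stayed at or below 1.39 FPKM, and the part of blood in the Mmp9 values was not tested.

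Set directly against the knockout, dupKIHom had 0 of the 8 members called (1.24% of all genes). An unadjusted p under 0.05 was found for 2 of the 8 and for 1683 of all 14059 genes. Slc5a7 was at 14.9, 14.6 and 13.1 FPKM against 17.5, 17.5 and 19.6 FPKM, without overlap, with a change of -0.34 (log2, SE 0.08, limma adjusted p = 0.0870). Chodl was at 5.82, 5.75 and 5.17 FPKM against 7.40, 6.69 and 9.13 FPKM, also without overlap (-0.40, SE 0.11, adjusted p = 0.145). These were 2 of 8 members tested with every dupKIHom library below every knockout library, against 5.78% of all genes. The changes of Chodl and Slc5a7 are therefore not shown to differ between dupKIHom and the knockout.

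In the heterozygous duplicated knock-in of the second set, no member moved beyond its spread. Of the 8 tested, 0 were called (2.53% of all genes) and 0 had an unadjusted p under 0.05, against 1878 of all 14802 genes. All log2 changes lay between -0.06 and 0.09, and between -0.09 and 0.10 without the libraries numbered 1. Chodl ran from 6.42 to 7.98 FPKM (median 7.02) in dupKIHet and from 5.98 to 8.99 FPKM (median 6.82) in wild-type, and its 95% interval was -0.17 to 0.19. Slc5a7 ran from 16.0 to 19.8 FPKM (median 17.3) against 12.7 to 19.7 FPKM (median 17.2), with an interval of -0.13 to 0.31. For both genes the interval leaves out the change measured in dupKIHom, but the difference between the genotypes was not tested across the sets. Of the lists, Ntrk2 fell from 94.5 ± 6.22 to 75.1 ± 4.79 FPKM (-0.33, limma adjusted p = 2.18e-05) and Dbh from 13.1 ± 2.65 to 7.79 ± 0.765 FPKM (-0.66, adjusted p = 0.0101), and both calls held in 12 of 12 fits with 1 library left out. The Dbh call was lost without libraries above 1000 FPKM of Ttr (0.0983). Ric3, a chaperone of nicotinic receptors, rose from 27.5 ± 1.72 to 31.8 ± 2.10 FPKM (0.21, limma adjusted p = 0.0200). That call held in 8 of 12 fits with 1 library left out (adjusted p up to 0.0687) and was lost when only these 2 genotypes were fitted (0.0964).

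In the knock-ins with a single repeat no member was called. For KIHet against wild-type, 0 of 8 passed (0.115% of all genes), and none had an unadjusted p under 0.05, against 1575 of all genes. The changes lay between -0.13 and 0.12 (-0.10 to 0.15 without the libraries numbered 1). For KIHom, 0 of 8 passed (0.601% of all genes, 1930 at an unadjusted p under 0.05). Ret was at 11.2, 11.1, 10.2 and 10.5 FPKM in KIHom and ran from 10.8 to 13.5 FPKM (median 12.0) in wild-type, which overlapped, with a change of -0.16 (log2, SE 0.07, unadjusted p = 0.0391, limma adjusted p = 0.350, and 0.404 without the libraries numbered 1). Chodl was at 7.28, 6.81, 6.52 and 6.11 FPKM in KIHom and at 6.36, 7.68, 8.38 and 6.27 FPKM in KIHet. Slc5a7 was at 20.1, 15.1, 16.5 and 13.5 FPKM in KIHom and at 16.6, 14.3, 17.3 and 13.4 FPKM in KIHet. Between KIHom and KIHet 0 of 8 members and 0% of all genes were called (333 genes had an unadjusted p under 0.05). Without the libraries numbered 1 the members' changes there lay between -0.30 and 0.01, and 1 gene of all was called. Etv1, a transcription factor of subsets of motor neurons and of other neurons, rose in KIHom from 22.0 ± 3.09 to 30.7 ± 2.48 FPKM (0.47, adjusted p = 0.0300). Ngfr, the low-affinity neurotrophin receptor, fell from 3.74 ± 0.372 to 2.57 ± 0.266 FPKM (-0.41, adjusted p = 0.0216). With 1 library left out the calls held in 2 of 10 fits for Etv1 (adjusted p up to 0.136) and 6 of 10 for Ngfr (up to 0.0932), and with only the 2 genotypes fitted both were lost (0.181 and 0.122).

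The duplicated and the single repeat were compared in heterozygotes, where 10.7% of all genes were called and 0 of the 8 members. Ret was at 12.3, 12.0, 14.3, 13.0, 13.7 and 11.5 FPKM in dupKIHet and at 10.0, 10.9, 12.6 and 11.1 FPKM in KIHet, with a change of 0.18 (log2, SE 0.07, limma adjusted p = 0.104). Without the libraries numbered 1 that change was 0.14 (adjusted p = 0.245). Of 15 tested genes of acetylcholine and choline handling 2 were higher, Ric3 (31.8 ± 2.10 against 26.1 ± 1.42 FPKM, adjusted p = 0.00240) and Pcyt1a, which makes CDP-choline (means of 21.4 against 18.7 FPKM, adjusted p = 0.0166), and both held in 10 of 10 fits with 1 library left out. The Pcyt1a call was lost with only the 2 genotypes fitted (0.0974). Of 9 motor neuron factors 1 was higher, Foxp1 (6.59 ± 0.803 against 5.14 ± 0.556 FPKM, adjusted p = 0.0356), in 5 of 10 such fits (up to 0.139). Of 10 tested genes of Ret ligands and co-receptors 3 were higher and 1 lower. Il6st, the shared signalling receptor of the CNTF and LIF family, was at 29.8 ± 2.12 against 24.8 ± 2.20 FPKM (adjusted p = 0.00856, and 0.0592 with only the 2 genotypes fitted). Lifr, the LIF receptor, was at 11.6 ± 0.854 against 10.3 ± 0.205 FPKM (adjusted p = 0.0344), which held in 2 of 10 fits with 1 library left out (up to 0.0833). Gfra1 was at 24.7 ± 1.70 against 19.0 ± 4.52 FPKM (adjusted p = 0.0439), a call that held in 3 of 10 fits with 1 library left out (up to 0.212). Ntrk2 was the lower one (75.1 ± 4.79 against 91.5 ± 2.17 FPKM, adjusted p = 0.000757, and 0.0523 after rescaling). Of 17 motor neuron effectors 3 were lower. They are Spp1, which encodes osteopontin (149 ± 8.50 against 199.9 ± 22.5 FPKM, adjusted p = 0.00886), Cd24a, a surface glycoprotein (28.5 ± 2.18 against 38.0 ± 3.77 FPKM, adjusted p = 0.0157), and Mt3, a brain metallothionein (526 ± 65.3 against 694 ± 50.8 FPKM, adjusted p = 0.0344). With 1 library left out these held in 10, 9 and 4 of 10 fits (Cd24a up to 0.0659 and Mt3 up to 0.0826), and they were lost for Cd24a after rescaling (0.0640) and for Mt3 without libraries above 1000 FPKM of Ttr (0.0921). Astrocyte markers were lower in the same libraries for 7 of 9 genes and endothelial markers higher for 7 of 8, and their part in these changes was not tested. The noradrenergic genes Dbh, which makes noradrenaline (7.79 ± 0.765 against 14.7 ± 2.83 FPKM, adjusted p = 0.00238), and Th, which makes its precursor dopa (5.74 ± 0.764 against 9.09 ± 1.11 FPKM, adjusted p = 0.00111), were lower. Chat was at 8.11 ± 0.712 against 7.29 ± 1.02 FPKM in those libraries (adjusted p = 0.422).

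In the YACQ84 transgenic mice Chat, Slc18a3, Slc5a7 and Chodl had their lowest genotype means of the second set, but none passed the test. Against wild-type, 0 of 8 were called (0.527% of all genes). An unadjusted p under 0.05 was found for 4 of the 8, all lower, and for 1073 of all 14802 genes. Chodl was at 4.88, 7.20, 4.92 and 5.96 FPKM in YACQ84 and from 5.98 to 8.99 FPKM (median 6.82) in wild-type, so that 3 of 4 libraries lay below all wild-type libraries. Its change was -0.27 (log2, SE 0.10, unadjusted p = 0.0097, limma adjusted p = 0.360). Slc5a7 was at 13.8, 14.5, 13.5 and 13.4 FPKM, inside the wild-type range of 12.7 to 19.7 FPKM (-0.25, adjusted p = 0.688). Chat was at 4.75, 7.39, 6.44 and 7.20 FPKM against 6.60 to 9.11 FPKM (median 7.73) in wild-type (-0.25, adjusted p = 0.509), and Slc18a3 at 5.32, 7.85, 7.26 and 8.76 FPKM against 7.61 to 9.43 FPKM (-0.23, adjusted p = 0.675). Library 1 held the lowest value for Chat, Slc18a3 and Chodl, and without the libraries numbered 1 the changes were -0.15, -0.10 and -0.19, with 0 members called and 48 of all 14664 genes.

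YACQ15 against wild-type had 0 of 8 members called (0.00676% of all genes, 665 at an unadjusted p under 0.05), with changes between -0.05 and 0.17 (-0.03 to 0.18 without the libraries numbered 1). Chodl was at 7.65, 6.71, 8.26 and 7.75 FPKM in YACQ15, Slc5a7 at 24.1, 14.0, 20.7 and 17.5 FPKM and Chat at 7.94, 6.77, 9.94 and 8.11 FPKM. In YACQ84 against YACQ15, which shares the YACQ84 libraries with the comparison above, 0 of 8 were called (0.263% of all genes). An unadjusted p under 0.05 was found for 4 of the 8 and for 889 of all 14802 genes. Slc5a7 had a change of -0.41 (log2, SE 0.13, limma adjusted p = 0.299), Chodl -0.36 (SE 0.11, 0.220) and Chat -0.31 (SE 0.11, 0.478). The groups overlapped for Slc5a7, since the 14.0 FPKM of YACQ15 library 2 lay below the 14.5 FPKM of YACQ84 library 2. Without the libraries numbered 1 these changes were -0.30, -0.30 and -0.20 (limma adjusted p = 0.549, 0.553 and 0.706). Dbh was lower in YACQ84 than in wild-type (7.91 ± 2.99 against 13.1 ± 2.65 FPKM, adjusted p = 0.0469), which held in 3 of the 10 leave-one-out fits (adjusted p up to 0.269).

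Library-to-library variation within genotypes was used to ask which members move together. Values were log2(FPKM + 1) minus the genotype mean, p-values came from permutations within genotypes, and Benjamini-Hochberg adjustment ran over the 8 relations with Chat. Since the libraries numbered 1 form a cluster of their own, the other 22 libraries of the second set are given first. That choice was made after the data were seen, and the values of Slc5a7 and Ache were among those that set the libraries numbered 1 apart. The p-values in the 22 libraries are therefore a description and not an independent test. The planned test used all 28 libraries, and Slc5a7 did not pass there (r = 0.27, permutation adjusted p = 0.356). In the 22 libraries Slc5a7 had the highest r with Chat of the members (Pearson r = 0.79, permutation adjusted p = 0.0156). Its Spearman rho was 0.70 (permutation adjusted p = 0.0235), and its r was 0.65 without the 2 libraries farthest from the median of Chat. Ret came next (r = 0.74, permutation adjusted p = 0.0156; rho = 0.63, adjusted p = 0.0260; r = 0.63 without those 2). Isl1 had r = 0.66 (permutation adjusted p = 0.0394; rho = 0.62, adjusted p = 0.0260; r = 0.52 without those 2). Slc18a3, which lies inside the Chat gene, had r = 0.63 (permutation adjusted p = 0.0394; rho = 0.59, adjusted p = 0.0420; r = 0.64 without those 2). Chodl passed by Pearson (r = 0.57, permutation adjusted p = 0.0394; r = 0.46 without those 2) and not by Spearman (rho = 0.50, permutation adjusted p = 0.0755).

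Ache (r = 0.35, permutation adjusted p = 0.185; rho = 0.27, adjusted p = 0.293), Tbx20 (r = 0.50, adjusted p = 0.0582; rho = 0.48, adjusted p = 0.0755) and Mmp9 (r = 0.33, adjusted p = 0.254; rho = 0.31, adjusted p = 0.293) did not pass by permutation in these 22 libraries. Over all 28 libraries, with adjustment over 16 relations in both sets, the order changed. Ret (r = 0.70, permutation adjusted p = 0.00320), Isl1 (0.64, 0.00776), Slc18a3 (0.63, 0.0292) and Ache (0.63, 0.0210) passed, while Slc5a7 did not (r = 0.27, permutation adjusted p = 0.356). Library 1 was the highest of its genotype for Slc5a7 in 4 of 6 genotypes, the lowest for Ache in 6 and the lowest for Chat in 3. In the first set (9 libraries, exact over all orders within genotypes) no relation passed. Slc18a3 had r = 0.58 and Slc5a7 r = 0.53 there (exact adjusted p = 0.356 each), and Ret r = 0.28 (exact adjusted p = 0.757).

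**Figure D4:**
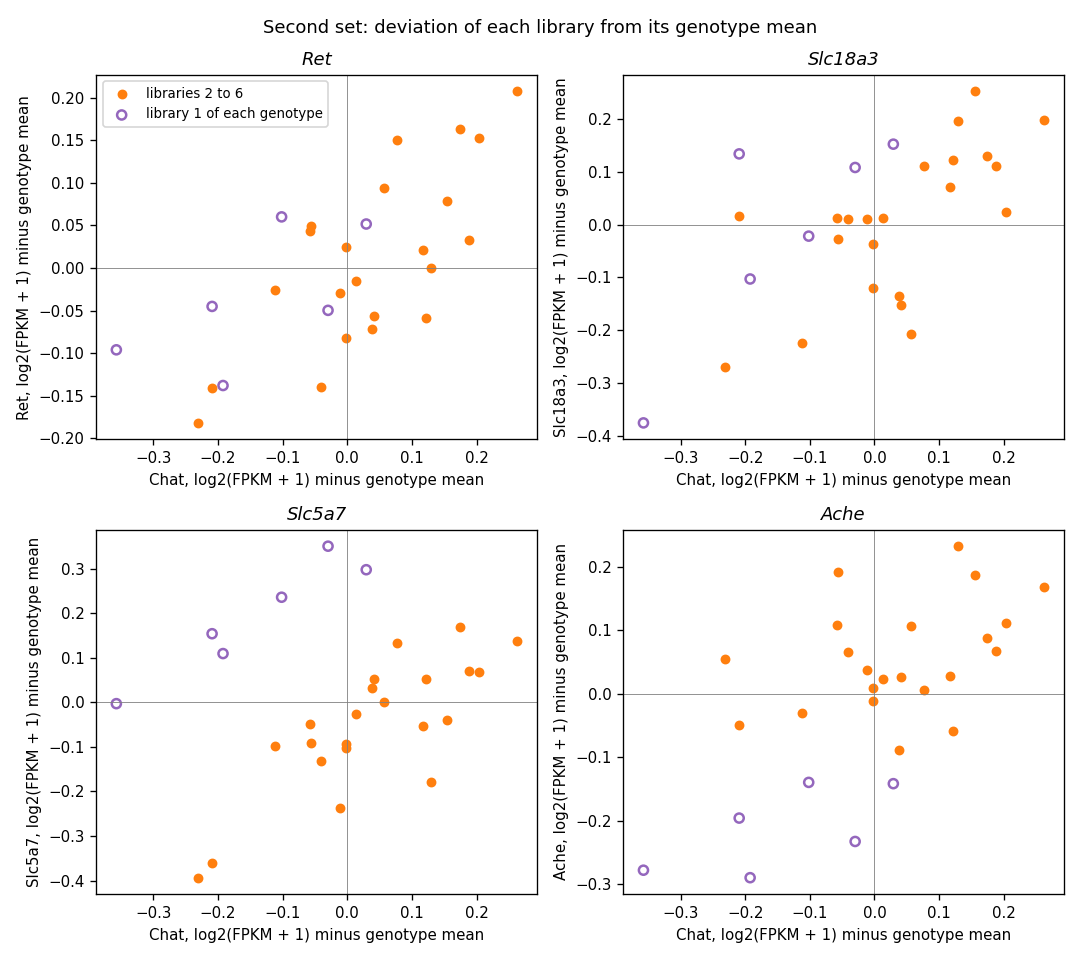
Deviation of each library of the second set from its genotype mean (log2(FPKM + 1)) for Chat (horizontal axes) and Ret, Slc18a3, Slc5a7 and Ache (vertical axes); filled points are the 22 other libraries and open circles library 1 of each genotype. Among the filled points Slc5a7 follows Chat with r = 0.79, against r = 0.27 over all 28 libraries, and the open circles lie low for Ache.

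Among the other pairs of the second set, given as a description with no test, Tbx20 stood closest to Ret and to Chodl. In the 22 libraries Tbx20 and Ret correlated at 0.77, Tbx20 and Chodl at 0.77, and Ret and Chodl at 0.72, and the same pairs were at 0.69, 0.73 and 0.74 over all 28. Slc5a7 correlated with Ret at 0.76 and with Chodl at 0.67 in the 22 libraries. Ache and Slc5a7 were at 0.07 in the 22 libraries and at -0.40 over all 28. Isl1 stood nearer to Chat (0.66) than to Ret (0.31) or Tbx20 (0.19) there. Mmp9 stayed at 0.46 or below with every other member in this set. In the 9 libraries of the first set Tbx20 and Chodl were at 0.76, but Tbx20 and Ret at -0.08 and Ret and Chodl at -0.09. Mmp9 was at 0.76 with Chodl, 0.55 with Tbx20 and 0.50 with Isl1 there. All pairs share the libraries and the FPKM scaling.

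**Figure D5:**
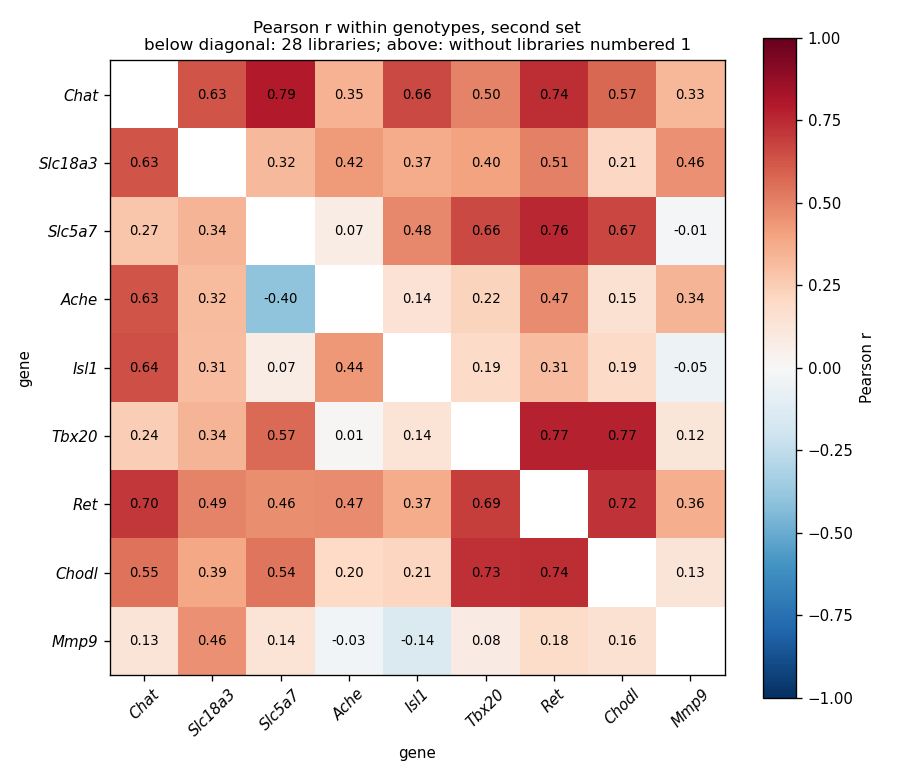
Pearson r between members across libraries of the second set, genotype means subtracted, as a colour scale from -1 to 1; cells below the diagonal use all 28 libraries and cells above it the 22 without the libraries numbered 1. Slc5a7 and Chat are at 0.27 below the diagonal and at 0.79 above it, and Ret, Chodl and Tbx20 are at 0.69 to 0.77 in both.

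Over the 12896 genes kept in both sets, the genes most like Chat by the mean of the within-set Pearson r (9 and 28 libraries, with no test) were Acly, Pik3cd, Kcnj14, Susd2 and Cul7. Acly, which makes cytosolic acetyl-CoA, had a mean r of 0.77 (0.77 in each set) at a wild-type level of 104 and 129 FPKM. Kcnj14, an inward-rectifier potassium channel, had a mean of 0.74 and Susd2 of 0.73, and in the 22 libraries without number 1 they stood at 0.80 and 0.76, and Acly at 0.72. Pik3cd, a catalytic subunit of phosphoinositide 3-kinase (mean r 0.76), and Cul7, a cullin of ubiquitin ligases (0.71), stood at 0.58 and 0.56 over the 28 libraries and at 0.27 and 0.50 over the 22. Of the members, Slc18a3 ranked 75 and Ache 76 in this order, followed by Ret at 407, Isl1 at 518, Slc5a7 at 979, Chodl at 1822 and Mmp9 at 4564. In the 22 libraries Slc5a7 (0.79) and Ret (0.74) stood above Acly, Pik3cd and Cul7. Kcnj14 (0.80) stood above Slc5a7 and Ret there, and Susd2 (0.76) stood above Ret. These comparison genes were picked over the 9 and 28 libraries, and all genes were not ranked in the 22. Whether the members follow Chat more closely there than most other genes do was therefore not tested.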

How the data were processed

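Per the labels' protocols, pons RNA was prepared with Trizol and an RNeasy kit. FPKM per gene and library was deposited by the authors. Per the submitters' processing notes the tools were Cuffdiff, TopHat2, DESeq, Trimmomatic, FastQC and CASAVA (1.8.2), with build mm8 and no roles given; strand settings are not given in the sources used here. Of 59 samples in the labels, 37 libraries were used and 22 were not analysed here. Columns were assigned by name; 6 wild-type columns have names that fit 2 samples each and were used as wild-type with no number from the labels, in the set of the block of columns they stand in. The design text counts mice per group, and the labels do not tie libraries to mice, so p-values measure the spread between these samples. From 41386 lines, 27 names turned into dates were dropped and 132 repeated symbols summed. Genes listed at 0 in every library of 1 genotype and at 1 FPKM or more in every library of another (7 and 12) were left out.

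Values were log2(FPKM + 1), which understates changes of low genes. The filter kept 14059 and 14802 genes, those that reached 1 FPKM in 3 or more libraries of the set. limma 3.58.1 (R 4.3.3, lmFit and eBayes with trend, tested on simulated data) fitted 1 mean per genotype per set; 11 contrasts had two-sided tests, adjusted by Benjamini-Hochberg across the genes kept, with calls at an adjusted p under 0.05. Correlations used 100000 permutations within genotypes, or all orders in the first set. Python 3.11.15 and scipy 1.17.1 were used. The named genes are the 9 members, up to 6 called genes per list (otherwise counts and the highest genes), the 5 genes most like Chat, and Atxn3, Ttr and Dbh where they touch a result; Prph, Lhx8, Nkx2-1, Mnx1, S100a8, S100a9, Gfra1 in dupKIHom, Vipr2 and Calcb were chosen after their values were seen. Members and lists were chosen with earlier results of these data known. Depth is unknown, so no counting error is given. Results of some genes of the lists are not reported here.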

Additional observations from a re-analysis of the deposited data

How the results depend on the processing

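In dupKIHom against wild-type 2 members were called. The count was 0 with no filter on low values or with FPKM rescaled to equal sums, 1 with a filter of 0.1 FPKM, quantile normalization, only the 2 genotypes fitted, Ttr as a covariate, no trend, or without libraries above 1000 FPKM of Ttr, and 0 to 2 with 1 library left out. Of all genes, 144 of 23337 were called with no filter, 80 of 15278 after rescaling and 283 of 14059 after quantile normalization. With 1 library left out 112 to 290 genes were called, against 230 of 14059 with every library. The no-filter, 0.1 FPKM and rescaled fits adjust over more genes, and the unadjusted p-values of both members were higher there too. For Chodl the unadjusted limma p was 0.000456 with no filter, against 0.000157 with the filter. The cause of the lower count of members was not tested for any alternative. Rescaling moved the median of all genes in dupKIHom against the knockout to 0.13 (log2) from 0.02. In dupKIHet against KIHet 1 member was called without libraries above 1000 FPKM of Ttr (Ret, limma adjusted p = 0.0479), against 0. Of all genes 1786 of 14636 were called there, against 1577 of 14802 with every library. Numbers were taken to pair libraries only where every same-numbered pair correlated above 0.1. No comparison met this (lowest pairs -0.17 to 0.06), although in the second set same-numbered pairs correlated more than others (means 0.18 against -0.06 for KIHom and KIHet, 0.15 against -0.05 for YACQ84 and YACQ15). With a replicate block, 1 member was called in dupKIHom against wild-type (Chodl, limma adjusted p = 0.0292), and 332 of all 14059 genes. In YACQ84 against YACQ15 that block called 1 member (Slc5a7, 0.0409) and 138 of all 14802 genes. In dupKIHet against KIHet it called 2 members (Slc5a7, 0.0397, and Ret, 0.0449) and 4240 of all 14802 genes. A covariate for the libraries numbered 1, chosen after seeing the data, did not call them. Slc5a7 was then at a limma adjusted p of 0.0639 in YACQ84 against YACQ15, with 139 of all genes called. In dupKIHet against KIHet Slc5a7 was at 0.113 and Ret at 0.0637, with 3712 of all genes called. The counts of members in the other 8 comparisons stayed at 0.

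For Chat over 28 libraries, r without the 2 farthest libraries was 0.47 for Slc18a3 and 0.50 for Ache, which then did not pass, and 0.57 for Chodl after rescaling, which then passed. Leaving out the libraries numbered 1, an alternative chosen after seeing the data, gave 0.79 for Slc5a7, 0.57 for Chodl and 0.35 for Ache. No result under these alternatives was called in the opposite direction. Depth is unknown, which limits most what can be said of Isl1, Tbx20 and Mmp9 near 1 FPKM. None of 54 groups of 4 or 6 libraries held an outlying library by Dixon's test for the members.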
